A study of Mus musculus with 9 samples.

Results

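The genes described here build, fold and clear proteins of the endoplasmic reticulum (ER) or report on the load of unfolded protein there. They were taken by symbol from a list of 37 genes, all of which were found among the 47593 gene symbols of the deposited transcript tables. By role they comprise 11 chaperones and co-chaperones of the ER lumen, 9 disulfide isomerases or relatives, 2 prolyl isomerases, 6 degradation genes, 6 stress sensors or transcription factors and 3 translocation genes. The level of a gene is the sum of the FPKM (fragments scaled to transcript length and to library size) of its transcripts.

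Secreted and membrane proteins enter the ER through the Sec61 channel and are folded there by lumenal chaperones, by lectin chaperones that read the glycan, and by enzymes that form disulfide bonds; those that fail are drawn back to the cytosol and degraded. When unfolded protein builds up, the membrane sensors Atf6, Ire1 (the product of Ern1) and Perk start the unfolded protein response. Atf6 and the transcription factor made from Xbp1 mRNA raise chaperone and degradation genes, while Perk slows translation and favours Atf4, which in turn raises Ddit3 (Chop), a factor tied to prolonged stress. In the cortex of rodents this response is known to be engaged by lost sleep, with the chaperone BiP (Hspa5) as its usual marker.

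The series measured RNA bound to ribosomes, from mPFC (medial prefrontal cortex) neurons of C57BL/6 adults, isolated through a tagged ribosomal protein (RiboTag immunoprecipitation) and sequenced from total RNA libraries. In the 3 sleep libraries and the 3 enforced wake libraries the mPFC carried overexpressed GFP, a fluorescent control protein. In the other 3 libraries GFP fused to Fxr1, a fragile X relative that binds RNA (GFP-Fxr1), was overexpressed and the animals were under enforced wake; no library analysed here combined Fxr1 with sleep. The labels do not give the length of wake, the driver of the ribosomal tag, or whether replicates are separate animals or pools, so p-values measure only the spread between these libraries, which may be technical. In such bulk RNA, fewer cells of a type and less RNA per cell cannot be told apart, and neither can more mRNA and a larger share of it on ribosomes.

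The libraries held an estimated 29896262 to 37349802 fragments. Fxr1 itself lay at 31.0 to 34.8 FPKM in the 6 libraries without the fusion and at 91.1, 67.7 and 71.8 FPKM in the 3 with it. Library Fxr1 1 stood apart: on principal component 1 (54.6% of the variance) it scored 64.1, against -31.2 to 13.3 in the other 8. The level of a gene relative to the mean of all libraries also moved with its GC content (Spearman rho over genes 0.62 to 0.69 in the wake libraries, -0.36 to 0.24 in sleep, and -0.78, -0.37 and -0.25 in the Fxr1 libraries), so results are set beside a fit with that trend and the trend on transcript length removed. Among markers of cell types in enforced wake against sleep, beside 15.7% of all genes called higher and 12.7% lower, 3 of 12 excitatory neuron genes were higher and 2 lower, 2 of 10 inhibitory genes were higher, and 2 of 12 astrocyte genes were higher and 1 lower. For oligodendrocytes 1 of 12 was higher and 2 lower, for their precursors 1 of 4 higher, for microglia 1 of 12 higher, for endothelial and mural cells 1 of 10 higher and 2 lower, and none of 3 meningeal or 7 blood and plasma cell genes was called. The summed marker FPKM spanned 749 to 854 (sleep), 866 to 1008 (wake) and 594 to 795 (Fxr1) for excitatory neurons, and 392 to 446, 428 to 506 and 346 to 403 for astrocytes. The ependymal gene Tmem212 was listed at 0 in all libraries. The part of cell makeup in the results was not tested.

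In enforced wake most of the ER folding genes rose. Limma on log2(FPKM + 1), with Benjamini-Hochberg adjustment over 14673 genes, tested 35 members (Pdia5 and Trib3 had a mean under 0.5 FPKM) and called 24 higher and 3 lower at an adjusted p under 0.05. Over all genes tested 15.7% were called higher and 12.7% lower. The median difference of the 35 members, enforced wake minus sleep, was 0.36 on the log2 scale against 0.00 for all genes. The members' summed level was 1373 ± 23.5 FPKM for sleep and 1825 ± 79.1 FPKM for enforced wake (SD, n = 3 each).

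**Figure D1:**
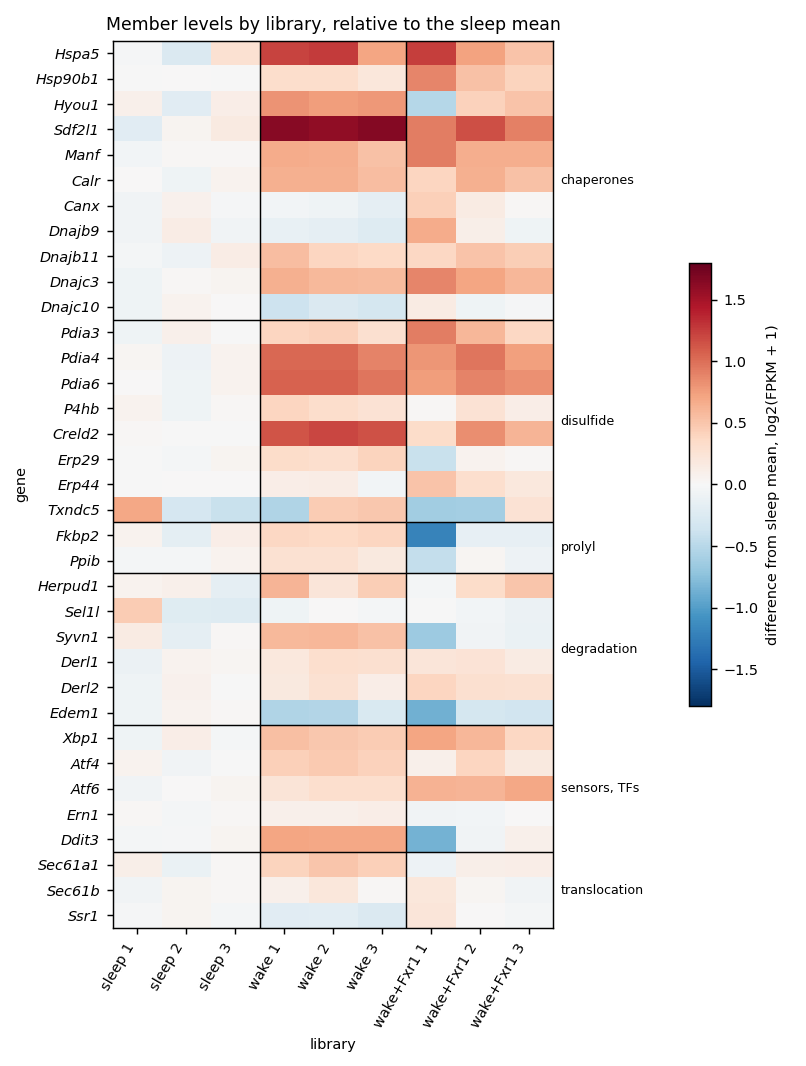
Each cell is the log2(FPKM + 1) level of 1 member in 1 of the 9 libraries minus its mean over the 3 sleep libraries, on a colour scale from blue (lower) to red (higher), with members grouped by role (TFs: transcription factors). Red dominates the 3 wake columns, darkest for Sdf2l1, Creld2, Hspa5, Pdia6 and Pdia4, and library Fxr1 1 carries the deepest blue cells, for Fkbp2, Edem1 and Ddit3.

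Many promoters of such genes carry the ER stress response element (ERSE), in which CCAAT binds the factor NF-Y and CCACG, spaced from it by any bases, binds Atf6 or Xbp1. Promoters of 300 bases, 250 before and 50 after the start, were taken from RefSeq (GRCm38.p6) and matched 31 of the 37 members, all but Hyou1, Manf, Erp29, Derl1, Atf6 and Sec61a1. The ERSE, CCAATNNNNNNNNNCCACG on either strand, occurred in 8 of the 31 member genes (25.8%). In the whole table it occurred in 37 of 27025 genes, and in 39 of 32851 single promoters (0.119%). The sites are shown because they hold the letters that these 8 members share. By role these are the lumenal chaperones Calr, Canx, Dnajc3, Hsp90b1 and Hspa5, the disulfide genes Creld2 and Pdia6, and the degradation gene Syvn1. The lumenal chaperones Sdf2l1, Dnajb9, Dnajb11 and Dnajc10 had a promoter without an ERSE. Each site is written 5′ to 3′ on the strand of its gene, with the ERSE in capitals. In Creld2, Calr and Hsp90b1 the element lies reversed, so that the capitals begin with CGTGG and end with ATTGG. The last line, for Herpud1, shows in capitals the shorter variant ERSE-II (ATTGGNCCACG).
Hspa5: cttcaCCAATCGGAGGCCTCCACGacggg
Pdia6: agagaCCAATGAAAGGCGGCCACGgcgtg
Dnajc3: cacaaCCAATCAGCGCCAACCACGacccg
Syvn1: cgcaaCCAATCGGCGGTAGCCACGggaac
Canx: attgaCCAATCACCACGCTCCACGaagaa
Creld2: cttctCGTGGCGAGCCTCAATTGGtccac
Calr: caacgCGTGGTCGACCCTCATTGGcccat
Hsp90b1: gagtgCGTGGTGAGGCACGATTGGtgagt
Herpud1: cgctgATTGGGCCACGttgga

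In GRCm38 the windows printed lie at chr2:34772020-34772048 (plus strand, Hspa5), chr12:17266486-17266514 (plus, Pdia6), chr14:118937822-118937850 (plus, Dnajc3), chr19:6046527-6046555 (plus, Syvn1) and chr11:50325795-50325823 (minus, Canx). The others lie at chr15:88819515-88819543 (plus, Creld2), chr8:84847070-84847098 (minus, Calr), chr10:86705528-86705556 (minus, Hsp90b1) and chr8:94386372-94386392 (plus, Herpud1). Hsp90b1 holds a second ERSE that begins 212 bases before its start. All printed ERSEs begin between 162 (Calr) and 44 (Syvn1) bases before the start given by RefSeq. ERSE-II was also found in Dnajb11, so in 2 of 31 members (6.45%) against 12 of 27025 genes (0.0365% of all promoters). Of other motifs, searched on both strands, UPRE (TGACGTGG) was in 1 member (Txndc5) and 0.676% of promoters, TGATGNAA, a core of sites bound by Atf4, in 3 members (9.68%) and 3.97% of promoters, and GAANNTTC, a pair of heat shock units, in 1 member (Ssr1) and 7.86% of promoters. Members were counted as genes, but the percentages of promoters count single promoters. Counted as genes, of 27025 the UPRE was in 193, TGATGNAA in 1219 and GAANNTTC in 2442. ERSE, ERSE-II and UPRE share the letters CCACG, or CGTGG on the other strand, so their matches can overlap. A match is a description of letters, not a bound site.

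Of the 8 members with an ERSE, 7 were called higher in enforced wake, all but Canx, and their median difference was 0.60 (log2). Of the 23 with a promoter in the table and no ERSE, 21 were tested, 11 were called higher and 3 lower, and the median was 0.24. The difference between these sets was not tested. Over all genes with a promoter in the table, 9896 were tested, 1588 were called higher and 1292 lower, with a median of 0.01. Among 29 other genes with an ERSE, 9 were tested and 2 were called higher, Derl3 (log2 difference 0.66) and Adcy3 (0.52), with a median of 0.02. The ERSE of Creld2, at chr15:88819520-88819538, also lies in the promoter of Alg12, a glycosylation gene on the opposite strand, chosen here after its values were seen. Creld2 rose from 5.96 ± 0.0882 to 14.6 ± 0.391 FPKM while Alg12 had a mean of 2.74 ± 0.215 FPKM over the sleep libraries and 2.72 ± 0.105 over the wake libraries (SD, n = 3; limma log2 difference -0.01, adjusted p 0.930).

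Of the 11 lumenal chaperones and co-chaperones, 8 rose in enforced wake and 1 fell, beside 15.7% and 12.7% of all genes. Their median log2 difference was 0.59. Hspa5 (ENSMUSG00000026864, chr2:34771970-34777547) encodes BiP, the main Hsp70 chaperone of the lumen and the protein that holds the stress sensors inactive. It was at 76.6, 65.0 and 94.9 FPKM in the sleep libraries, 182, 188 and 128 in enforced wake, and 186, 129 and 111 with Fxr1. All wake libraries, with or without Fxr1, lay above all sleep libraries; the log2 difference of enforced wake from sleep was 1.06 (SE 0.19, limma adjusted p 0.0106).

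Sdf2l1 (chr16:17130138-17132383), a partner of lumenal J proteins that keeps clients soluble, showed the largest rise of the members and was exceeded by 24 of the 14673 genes tested. Its level was 4.29, 5.30 and 5.83 FPKM in sleep, 18.1, 17.4 and 18.1 in enforced wake, and 10.6, 12.6 and 10.5 with Fxr1. The 3 groups did not overlap, with the Fxr1 libraries between the other groups, and the wake difference was 1.63 (SE 0.10, limma adjusted p 0.000856).

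Hyou1, a large Hsp70 relative that exchanges the nucleotide of BiP, was at 29.1, 23.5 and 29.7 FPKM in sleep, 48.8, 46.6 and 47.8 in enforced wake, and 18.8, 36.8 and 39.2 with Fxr1. The wake libraries lay above those of both other groups, and library Fxr1 1 lay below every other library; enforced wake minus sleep was 0.78 (SE 0.09, limma adjusted p 0.00393). Manf, a small secreted and ER-retained protein that binds BiP and protects neurons, was at 18.2, 19.1 and 19.0 FPKM in sleep, 30.3, 30.0 and 27.5 in enforced wake, and 36.4, 30.2 and 30.2 with Fxr1. Both wake groups lay above sleep and overlapped each other (enforced wake minus sleep 0.61, SE 0.06, limma adjusted p 0.00235).

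Of the lectin chaperones Calr passed the test and Canx did not. Calreticulin (Calr), the soluble form, was at 160, 150 and 166 FPKM in sleep, 248, 247 and 233 in enforced wake and 207, 249 and 229 with Fxr1, a wake rise of 0.61 (SE 0.06, limma adjusted p 0.00235) with no overlap between sleep and the other groups. Calnexin (Canx), its membrane-bound relative, spanned 183 to 201 FPKM in the sleep libraries and 170 to 183 in the wake libraries, overlapping groups with a log2 difference of -0.10 (adjusted p 0.250); the difference between the 2 genes was not tested.

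Hsp90b1, the Hsp90 of the lumen, was at 156, 157 and 156 FPKM in sleep, 195, 196 and 180 in enforced wake, and 289, 227 and 207 with Fxr1. All Fxr1 libraries lay above all wake libraries, and these above sleep (enforced wake minus sleep 0.28, limma adjusted p 0.0139). The J proteins, which hand clients to BiP, were called in both directions. Dnajc3 rose from 14.4, 15.5 and 15.8 FPKM in sleep to 24.2, 23.2 and 23.0 in enforced wake and was at 28.8, 25.5 and 23.5 with Fxr1 (wake minus sleep 0.59, SE 0.06, limma adjusted p 0.00242). Dnajb11 rose by 0.43 (adjusted p 0.0138), Dnajb9 had a difference of -0.18 that did not pass (adjusted p 0.121), and Dnajc10, a J protein that also reduces disulfides, fell by 0.32, with 33.3 to 36.9 FPKM in the sleep libraries and 26.8 to 29.3 in the wake libraries (limma adjusted p 0.0146).

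**Figure D2:**
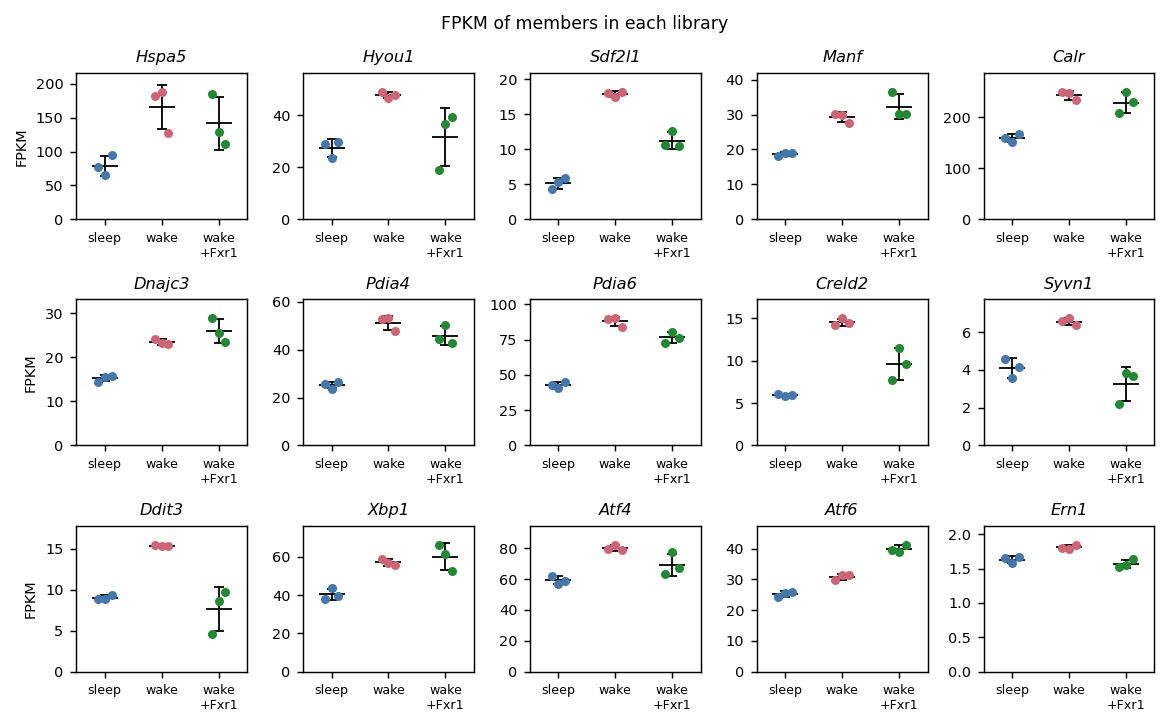
Points give the FPKM of 15 members in each of the 3 libraries of a group, the long dash the group mean and the bars 1 SD; every axis starts at 0. The wake points lie above the sleep points in all 15 panels, and for Hyou1, Sdf2l1, Pdia6, Creld2, Syvn1, Ddit3, Atf4 and Ern1 all Fxr1 points lie below the wake points.

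Disulfide isomerases make and shuffle the bonds between cysteines. Of the 8 tested 6 were higher in enforced wake and none lower, beside 15.7% and 12.7% of all genes. Their median log2 difference was 0.35. Pdia6 was at 42.8, 40.6 and 44.8 FPKM in sleep, 89.8, 90.0 and 84.1 in enforced wake, and 72.9, 80.4 and 76.4 with Fxr1, so the Fxr1 libraries lay between the other groups without overlap (2.06-fold between the means of wake and sleep, limma adjusted p 0.000681). Pdia4 was at 25.8, 23.7 and 26.4 FPKM in sleep, 52.6, 53.0 and 47.7 in enforced wake and 44.5, 50.3 and 43.0 with Fxr1 (wake minus sleep 0.99, SE 0.07, limma adjusted p 0.00109). Here the wake and Fxr1 groups overlapped, and both lay above sleep.

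Creld2 (chr15:88819646-88826683), an ER-resident protein with isomerase-like motifs that is a known target of Atf6, had the smallest adjusted p of the members. It was at 6.06, 5.90 and 5.91 FPKM in sleep, 14.3, 15.0 and 14.4 in enforced wake, and 7.78, 11.5 and 9.61 with Fxr1, again without overlap between groups (wake minus sleep 1.16, SE 0.06, limma adjusted p 0.000394). Pdia3, which works with the lectin chaperones on glycoproteins, rose by 0.36, Erp29 by 0.34 and P4hb, the founding isomerase of the family, by 0.32. With the GC and length trend removed the call of P4hb ended (0.17, limma adjusted p 0.0709). Erp44 was at 17.6 FPKM in each sleep library and at 17.0 to 19.5 in the wake libraries (0.07, adjusted p 0.471), and with the trend removed it was called higher (0.27, adjusted p 0.0230). Txndc5 spread within groups, with 18.6, 8.84 and 8.18 FPKM in the sleep libraries and 7.33, 15.7 and 15.95 in the wake libraries, and was not called (limma adjusted p 0.802). Pdia5 was too low to test at 0.20 to 0.44 FPKM in all libraries.

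Prolyl isomerases turn the bonds before proline that slow folding. Fkbp2 spanned 35.5 to 43.7 FPKM over the sleep libraries and 51.9 to 52.8 over the wake libraries (0.37, limma adjusted p 0.0211), and Ppib, a cyclophilin, was 58.5 to 63.2 and 68.0 to 73.1 (0.24, adjusted p 0.0267). Neither pair of groups overlapped. With the GC and length trend removed the wake difference of Fkbp2 was 0.02 (adjusted p 0.815) and that of Ppib was 0.17 (adjusted p 0.0348).

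Of the 6 degradation genes 3 were called higher and 1, Edem1, lower, beside 15.7% and 12.7% of all genes. Syvn1, the Hrd1 ubiquitin ligase at the centre of ER-associated degradation, was at 4.604, 3.55 and 4.15 FPKM in sleep, 6.58, 6.73 and 6.36 in enforced wake, and 2.22, 3.86 and 3.70 with Fxr1. Every wake library lay above all others, and enforced wake minus sleep was 0.57 (SE 0.09, limma adjusted p 0.00806). Herpud1, which brings substrates to the ligase, rose by 0.42 (adjusted p 0.0379) and the channel candidate Derl1 by 0.26 (adjusted p 0.0352). The call of Herpud1 ended in 11 of 19 alternatives, among them the fit with the GC and length trend removed (0.35, limma adjusted p 0.0889).

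Edem1, a lectin-like factor that trims mannose to mark failed glycoproteins for removal, fell instead, with 4.20, 4.70 and 4.54 FPKM in the sleep libraries and 2.75, 2.80 and 3.51 in the wake libraries, with no overlap (limma log2 difference -0.45, adjusted p 0.0173). Derl2 had a difference of 0.19 (adjusted p 0.105), and with the GC and length trend removed it was called higher (0.33, adjusted p 0.0123). Sel1l, the partner of the ligase, was at 56.3 FPKM in 1 sleep library, 35.1 and 34.7 in the others and 38.6 to 41.1 in enforced wake (-0.04, adjusted p 0.883).

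Among stress sensors and transcription factors 4 of 5 tested rose, beside 15.7% of all genes. Xbp1 (chr11:5520659-5525893), whose mRNA is cut by Ire1 to yield the active factor, was at 38.1, 43.7 and 39.4 FPKM in sleep, 59.1, 56.9 and 55.6 in enforced wake, and 66.4, 61.6 and 52.5 with Fxr1. Both wake groups lay above sleep (enforced wake minus sleep 0.49, SE 0.07, limma adjusted p 0.00547). The shortest intron among the annotated transcripts of Xbp1 is 300 bases, far longer than the piece that Ire1 removes, so the tables do not list the cut form apart and its share was not analysed here. The transcript ENSMUST00000063084 carried most of the level, with 36.1 to 38.4 FPKM over the sleep libraries and 52.5 to 56.2 over the wake libraries.

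Atf4, the factor favoured when Perk slows translation, was at 61.8, 56.7 and 58.9 FPKM in sleep, 79.6, 82.3 and 78.8 in enforced wake, and 63.2, 77.3 and 67.0 with Fxr1. The wake libraries lay above both other groups (enforced wake minus sleep 0.43, SE 0.05, limma adjusted p 0.00448). Ddit3 (chr10:127290774-127296288), which Atf4 is known to raise, was at 8.83, 8.91 and 9.43 FPKM in sleep, 15.5, 15.3 and 15.3 in enforced wake, and 4.59, 8.66 and 9.70 with Fxr1. It rose by 0.71 in enforced wake (SE 0.06, limma adjusted p 0.00135), and the Fxr1 libraries overlapped the sleep libraries.

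Atf6, the sensor that is itself cut to give a transcription factor, was at 24.2, 25.4 and 26.0 FPKM in sleep, 29.6, 31.4 and 31.3 in enforced wake, and 39.6, 38.9 and 41.2 with Fxr1. The 3 groups did not overlap and stood in the order sleep, enforced wake, Fxr1 (enforced wake minus sleep 0.28, SE 0.06, limma adjusted p 0.0157). Ern1 was at 1.66, 1.58 and 1.66 FPKM in sleep, 1.797, 1.79 and 1.85 in enforced wake, and 1.52, 1.55 and 1.63 with Fxr1; its wake libraries were the highest, but the difference of 0.10 did not pass (limma adjusted p 0.303). Trib3, a pseudokinase induced by Ddit3, was at 0.07 FPKM in 1 sleep library and listed at 0 in the other two, at 0.12, 0.07 and 0.05 in enforced wake, and at 0, 0.04 and 0.04 with Fxr1, too low to test.

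At the translocation channel Sec61a1, its pore subunit, rose (14.3 to 16.9 FPKM over the sleep libraries, 21.0 to 22.6 over the wake libraries, difference 0.45, limma adjusted p 0.00957). The small subunit Sec61b differed by 0.11 (adjusted p 0.287), and Ssr1, of the translocon-associated complex, fell by 0.22 (adjusted p 0.0277).

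Of the 24 higher calls, 16 held with each of the 6 libraries left out in turn: Atf4, Calr, Creld2, Ddit3, Dnajb11, Dnajc3, Erp29, Hspa5, Hyou1, Manf, Pdia4, Pdia6, Sdf2l1, Sec61a1, Syvn1 and Xbp1. Of these, Ddit3, Dnajb11, Erp29, Hspa5, Hyou1 and Syvn1 lost the call in some other alternative, so 10 of the 24 held throughout. The share of all genes whose calls held in this way is not given here. On its most abundant transcript alone Dnajb11 was not called (limma adjusted p 0.737). Without wake 2 the calls of Atf6, Derl1, Fkbp2, Hsp90b1, P4hb, Pdia3, Ppib, Edem1 and Ssr1 ended (limma adjusted p 0.0501 to 0.113). Without wake 1 those of Derl1, Fkbp2, Herpud1, Ppib, Edem1 and Ssr1 ended (0.0534 to 0.0926), and without wake 3 those of Atf6, Derl1, Fkbp2, Herpud1, Dnajc10 and Ssr1 (0.0501 to 0.107). Leaving out a sleep library ended Herpud1 each time, with Derl1 and Ppib (without sleep 1, 0.0620 to 0.0731), Ppib (without sleep 2, 0.0505 to 0.0559) or Derl1 and Ssr1 (without sleep 3, 0.0642 to 0.0958). None of the 3 lower calls held through every such test. With the GC and length trend removed 23 members were higher and 3 lower, against 10.4% and 13.2% of all genes. In a fit on all 9 libraries, where all groups share 1 estimate of the spread, 14 were higher and 1 lower, against 4.61% and 5.0% of all genes.

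The transcripts behind a gene could shift between libraries while the gene rose. For Hspa5 the retained-intron transcript ENSMUST00000145466, 720 bases long, was given 46.8 and 46.0 FPKM in wake 1 and 2 but 1.298 in wake 3, where the longer ENSMUST00000028222 (3672 bases) held 44.6 FPKM against 14.01 and 11.4 in wake 1 and 2. Since FPKM divides by length, the same fragments count for more on a short transcript. Expressed as fragments scaled to library size alone, without division by length (FPKM times the transcript length in kilobases), a scale added after these values were seen, Hspa5 was at 152, 153 and 247 in sleep, 384, 403 and 376 in enforced wake and 473, 405 and 344 with Fxr1. On this scale the wake libraries lay close together and the Fxr1 libraries overlapped them. In enforced wake 24 members were called higher and 3 lower, the same numbers as with FPKM. Over all genes 2605 of 15473 were called higher and 2319 lower on this scale, against 2298 and 1858 of 14673 with FPKM. On its most abundant transcript alone the wake difference of Hspa5 was 0.95 and not called (limma adjusted p 0.137).

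**Figure D3:**
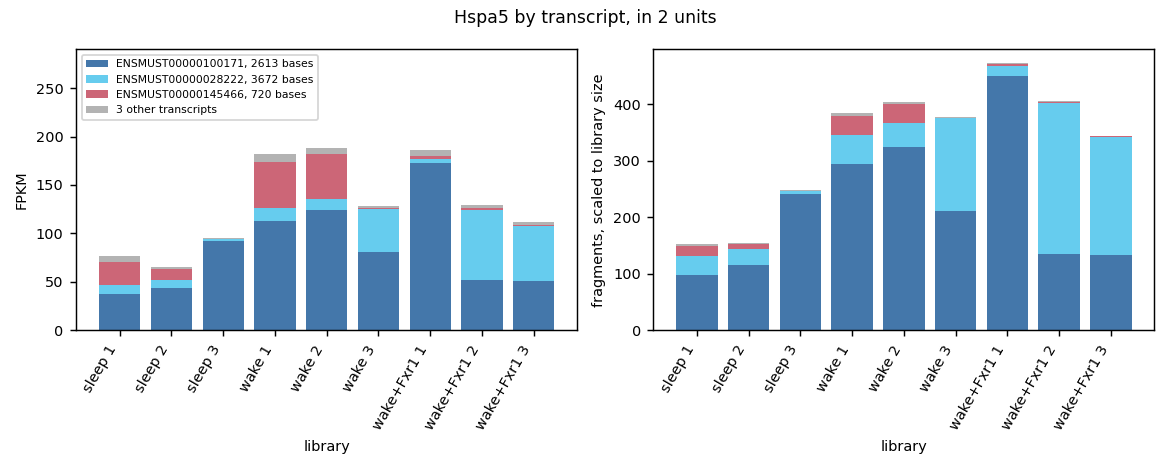
Stacked bars give the level of Hspa5 in each of the 9 libraries, in FPKM (left) and in fragments scaled to library size alone (right), split by transcript. The short retained-intron transcript (red) adds 46.8 and 46.0 FPKM in wake 1 and 2 and little elsewhere in the wake groups, while on the right all wake libraries, with and without Fxr1, stand between 344 and 473.

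Tested 1 by 1, 13 of 68 member transcripts were called higher in enforced wake and none lower, where 2.05% of the 29116 transcripts tested were called higher and 3.62% in either direction. They were the main transcripts of Atf4, Calr, Creld2, Ddit3, Dnajc3, Hsp90b1, Hyou1, Manf, Pdia3, Pdia4, Pdia6, Sdf2l1 and Xbp1, all protein-coding. The count fell to 5 without wake 1 or wake 2 and to 6 without wake 3 or sleep 3, and was 10 without sleep 1 or sleep 2. Of all transcripts 215, 194 and 172 were called higher without wake 1, 2 and 3. Without sleep 1, 2 and 3 these were 360, 393 and 200, against 596 with all 6 libraries. With the replicate number as a block in the fit, 0 member transcripts and 11 of all transcripts were called. Syvn1 was divided between transcripts in a way that changed among libraries: ENSMUST00000134667 held 5.06 and 5.42 FPKM in wake 1 and 2 and was listed at 0 in the other 7 libraries, while ENSMUST00000138532 was at 1.11 and 0.41 FPKM in those 2 wake libraries and at 4.81 in wake 3. Taken from the second transcript alone the wake difference of Syvn1 was -0.80 (limma adjusted p 0.336), the reverse of its sum. In the authors' deposited table of sleep and enforced wake the smallest q among 147 member transcripts was 0.0657, for Creld2, whose deposited ratio of sleep to enforced wake was 0.432.

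Other genes of the same machinery, from lists that do not overlap the members, were called in both directions in enforced wake. Of 29 further folding, redox and glycosylation genes 6 were higher and 4 lower, with a median of -0.06; Prkcsh, the beta subunit of glucosidase II, rose by 0.69, Dad1 of the oligosaccharyltransferase by 0.45, and the membrane thioredoxin Tmx4 fell by 0.37. Of 21 further degradation genes 3 were higher and 4 lower, with a median of -0.03; Derl3 rose by 0.66, and the lectin Erlec1 and the extraction factor Ufd1l fell by 0.72 and 0.35. Of 19 other sensors and regulators 4 were higher and 2 lower. Atf6b, the paralog of Atf6, rose by 0.60, Creb3l2 by 0.42, and Mbtps2, a protease that cuts Atf6, fell by 0.38. Eif2ak3, which encodes Perk, differed by -0.009 and was not called (limma adjusted p 0.934).

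Among 23 targets of Atf4 outside the members 3 were higher and 4 lower, with a median of 0.16; the aminotransferase Gpt2 rose by 0.86, while asparagine synthetase (Asns) fell by 0.34 and Vldlr by 0.27. Of 22 other translocation genes 4 were higher and 1 lower, with the receptor subunit Srprb at 0.39, Srp68 at 0.43 and Srp54a at -0.32. Of 26 genes of vesicle transport between ER and Golgi 5 were higher and 3 lower, with the cargo receptor Lman2 at 0.71, the exit site scaffold Sec16a at 0.54 and the coat subunit Copb2 at -0.23. In the cytosol, 10 of 22 heat shock genes were higher and none lower, led by Hspa1b (1.19), Hspa1a (1.13) and the Hsp90 co-chaperone Chordc1 (0.77), with a median of 0.30. These counts stand beside the 15.7% higher and 12.7% lower of all genes, and no difference between lists was tested.

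**Figure D4:**
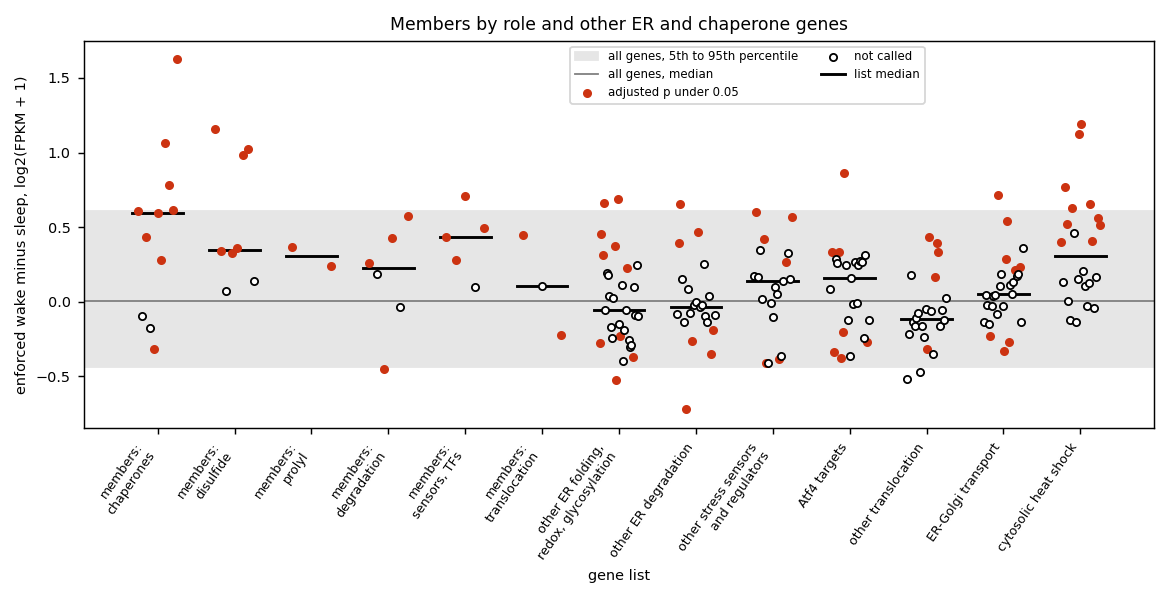
Each point is the difference of 1 gene, enforced wake minus sleep, in log2(FPKM + 1), for the members by role (left) and 7 other lists (right); red points passed limma at an adjusted p under 0.05, open points did not, black lines are list medians and the grey band spans the 5th to the 95th percentile of all 14673 genes. Chaperone members have the highest median (0.59), and most members and most genes of the other ER lists lie within the band.

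Adding Fxr1 to enforced wake asked which of these RNAs differ when the protein is overexpressed; this comparison and the one with sleep share the 3 wake libraries. Limma called 0 of the 35 members tested in either direction, where 60 of 14563 genes (0.412%) were called. At an unadjusted p under 0.05 there were 14 members, 4 higher and 10 lower, against 38.3% of all genes. The median difference, Fxr1 minus enforced wake, was -0.09, and the smallest adjusted p was 0.0600, for Sdf2l1 (-0.63, SE 0.10). The summed level of the members was 1819 ± 111 FPKM (SD, n = 3), close to that of enforced wake alone. Of 76 member transcripts 0 were called, where 0.895% of 28837 transcripts were.

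The values with Fxr1 differed from gene to gene, as over all genes, where differences ran from -0.92 (5th percentile) to 0.42 (95th percentile). Of the members named next, only Ddit3 lay outside that range. The lowest differences were those of Ddit3 (-0.98, SE 0.24, limma adjusted p 0.0878), Fkbp2 (-0.87, SE 0.29, 0.0957), Syvn1 (-0.85, SE 0.17, 0.0878), Hyou1 (-0.65, SE 0.27, 0.128), Sdf2l1, given above, and Creld2 (-0.57, SE 0.14, 0.0878). The highest were those of Dnajb9 (0.41, SE 0.19, 0.160), Atf6 (0.37, SE 0.08, 0.0878), Dnajc10 (0.33, SE 0.09, 0.0880) and Hsp90b1 (0.33, SE 0.14, 0.133). For all of them the 3 Fxr1 libraries lay on 1 side of the 3 wake libraries, which the choice of the most extreme differences favours. The share of all genes without overlap is not given here.

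Library Fxr1 1 was the extreme library for many of them. Fkbp2 was at 52.3, 51.9 and 52.8 FPKM in enforced wake and 16.9, 36.2 and 36.4 with Fxr1, and Dnajb9 at 24.0, 23.6 and 22.4 against 42.7, 28.7 and 24.96. Without library Fxr1 1 the fit called 3 members higher (Atf6, Dnajc10 and Ssr1) and 9 lower (Creld2, Ddit3, Erp29, Fkbp2, Hyou1, Ppib, Sdf2l1, Sec61a1 and Syvn1), with 5.69% of all genes called higher and 17.1% lower. In that fit Ddit3 was at -0.69 (limma adjusted p 0.00568), Syvn1 at -0.66 (0.00601), Sdf2l1 at -0.59 (0.0118) and Atf6 at 0.37 (0.0135). A fit on all 9 libraries called 3 members higher and 8 lower, against 6.72% and 16.3% of all genes. With limma weights that count libraries standing apart for less, 8 were higher and 11 lower, against 17.1% and 29.6%.

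These differences also moved with the GC content of the transcripts. Across the 35 members the Spearman rho between GC content and Fxr1 minus enforced wake was -0.67, a description over genes that share libraries. Fkbp2 (57.8% GC), Sdf2l1 (56.7%), Syvn1 (56.6%) and Creld2 (54.8%) stood low, and Dnajb9 (40.6%), Hsp90b1 (42.1%) and Canx (42.2%) stood high. With the trend removed the differences were -0.09 for Fkbp2, -0.04 for Sdf2l1, -0.27 for Syvn1, -0.14 for Creld2, 0.11 for Dnajb9 and 0.08 for Hsp90b1. Ddit3 (45.6% GC) kept a difference of -1.06 (limma adjusted p 0.135) and Atf6 (46.0% GC) one of 0.27 (adjusted p 0.130). For the wake effect the rho across members was 0.41, and with the trend removed Sdf2l1 was at 1.40, Hspa5 at 1.16, Pdia6 at 1.08, Creld2 at 1.02 and Ddit3 at 0.85, all called.

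**Figure D5:**
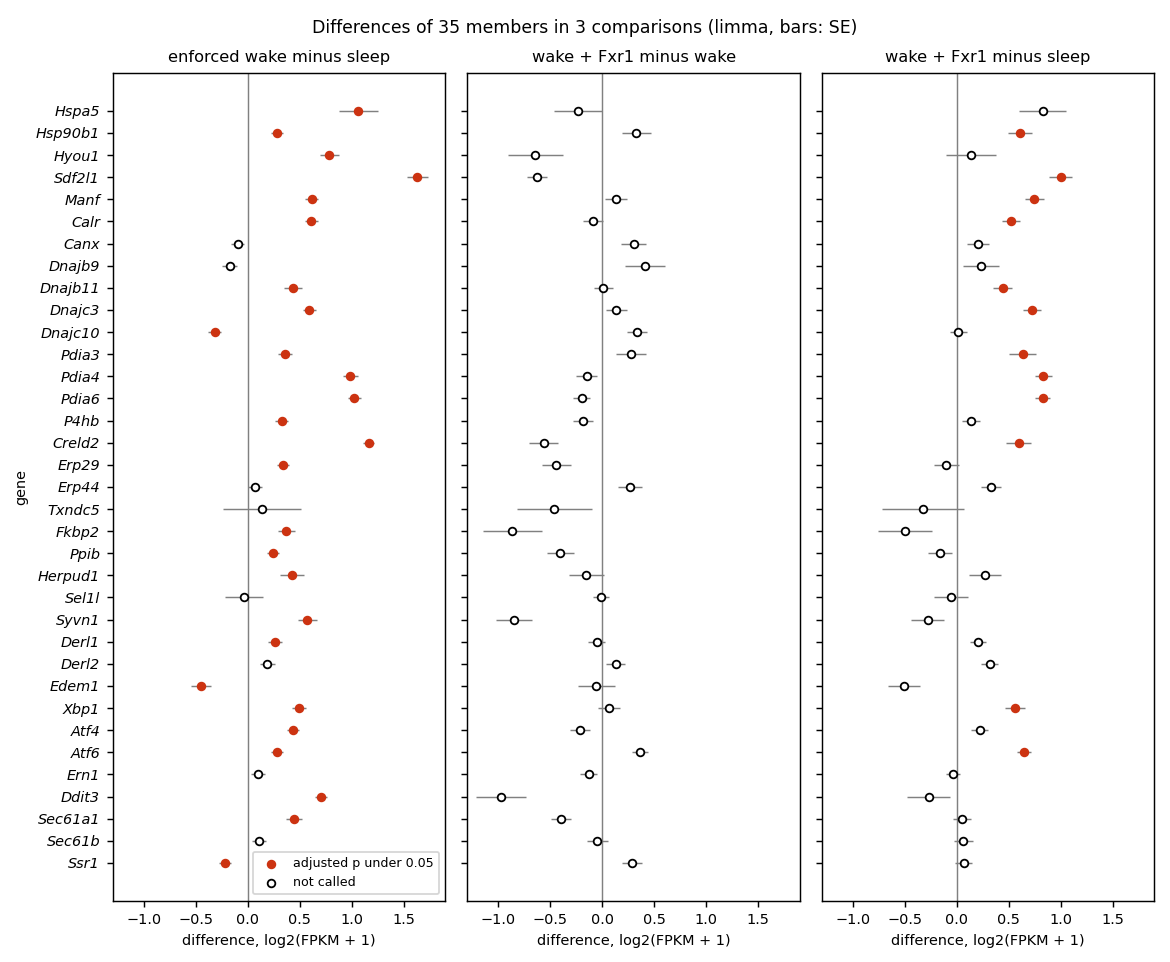
Points are the log2(FPKM + 1) differences of the 35 members tested, with SE bars, for enforced wake minus sleep (left), Fxr1 minus enforced wake (middle) and Fxr1 minus sleep (right); red points have a limma adjusted p under 0.05. Of the members 27 are red on the left, 0 in the middle and 12 on the right; the left and middle fits use the 6 libraries compared, the right one all 9, where the left and middle counts were 15 and 11, and the panels share libraries.

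Set against sleep, in a fit on all 9 libraries, the Fxr1 libraries had 12 members higher and 0 lower, where 3.27% and 4.65% of 14562 genes were called. No member had an adjusted p under 0.05 for a fall in this limma fit, and 1 had an unadjusted one (Edem1, -0.51, adjusted p 0.0767). The median difference, Fxr1 minus sleep, was 0.22 for the members and -0.09 for all genes. By role the called members were 6 of 11 chaperones (Calr, Dnajb11, Dnajc3, Hsp90b1, Manf and Sdf2l1), 4 of 8 disulfide isomerases (Creld2, Pdia3, Pdia4 and Pdia6) and 2 of 5 sensors and factors (Atf6 and Xbp1). No prolyl isomerase, degradation or translocation gene was among them.

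The largest called differences from sleep were Sdf2l1 (0.998, SE 0.11), Pdia4 (0.83, SE 0.09), Pdia6 (0.83, SE 0.07), Manf (0.75, SE 0.09) and Dnajc3 (0.72, SE 0.09). Hspa5 was at 0.82 (SE 0.23, limma adjusted p 0.0608), with all Fxr1 libraries above all sleep libraries. Ddit3 (-0.27, adjusted p 0.396), Syvn1 (-0.28, adjusted p 0.261), Hyou1 (0.14, adjusted p 0.721) and Atf4 (0.22, adjusted p 0.137), which had risen in enforced wake in the fit on 6 libraries, were not called against sleep. In this fit on all 9 libraries the wake rise itself was called for Atf4 (limma adjusted p 0.0202) but not for Syvn1 (0.0570), Ddit3 (0.0691) or Hyou1 (0.0767). With the GC and length trend removed 20 members were higher and 0 lower (7.16% and 5.66% of all genes), now with Hspa5 at 0.81 (limma adjusted p 0.0392) and Atf4 at 0.47 (adjusted p 0.00594), while Ddit3 was at -0.22 (adjusted p 0.579). A fit on the 6 libraries of these groups alone called 6 members higher and 0 lower (0.735% and 0.522% of all genes), and one with library weights 21 higher and 1 lower (11.5% and 22.2%).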

How the data were processed

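Ribosome-bound RNA of 9 mouse libraries was analysed, 3 for each of 3 groups taken from the labels. Per the submitters' processing notes, HISAT2 2.1.0, SAMtools 1.9, StringTie 1.3.4d and the GRCm38 build were used; their settings, including strand, and the tool behind the deposited comparisons are not given in the sources used here. The authors deposited FPKM for 115220 transcripts in 2 tables, normalised by transcript length and library size. The authors also deposited, per transcript, a fold ratio and its p-value and q-value; by the signs of the values the ratios were sleep over enforced wake and Fxr1 over enforced wake. The enforced wake columns of both tables were identical (largest difference 0).

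Transcript FPKM were summed by gene symbol. Of 47729 gene IDs 99.1% were in GENCODE M21, which supplied positions, lengths and GC content. Depth was estimated from the step of FPKM times length that 1 fragment is worth. Differences were tested with limma 3.58.1 in R 4.3.3 on log2(FPKM + 1), with an intensity trend, two-sided, Benjamini-Hochberg adjustment over all genes with a mean of at least 0.5 FPKM in the libraries compared, and a threshold of 0.05. Enforced wake against sleep and Fxr1 against enforced wake used the 6 libraries of each table, and Fxr1 against sleep used all 9; 2 of the comparisons share the wake libraries. With 3 against 3 libraries an exact permutation test cannot go below p = 0.1, so none is given. The script was tested on simulated data. Tables and figures were made in Python 3.11.15 with pandas 2.3.3 and matplotlib 3.10.9.

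The members and the other gene lists were chosen with earlier results of these data known, so counts of members are descriptions beside the share of all genes. Per-library values are given for members called with a log2 difference of at least 0.5, for every member that is a sensor or transcription factor, and where a result needed them. From each other list up to 3 genes with the smallest p in enforced wake are named. Eif2ak3 was added after its values were seen, because the text describes Perk. Alternatives covered the pseudocount, the filter, scaling, the libraries in the fit, library weights, GC and length trends, a replicate block, transcripts and each library left out. Of the 9 pairs of same-numbered libraries the deviations correlated at -0.25 to 0.17, and of differently numbered pairs at -0.38 to 0.43. The numbers thus gave no sign of pairing, but these correlations cannot tell whether a batch was shared.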

Additional observations from a re-analysis of the deposited data

How the results depend on the processing

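For enforced wake against sleep the members' median (main 0.36) was 0.34 with no filter, 0.32 with the GC and length trend removed, with or without the replicate block, and 0.32 to 0.40 with 1 library left out. Of 24 higher and 3 lower calls, 14 and 1 remained in number in a fit on all 9 libraries. With 1 library left out the counts were 17 to 22 and 1 to 3. Over all genes 2298 were higher and 1858 lower in the main fit, and 677 and 734 in the fit on all 9 libraries. With 1 library left out 1057 to 2103 of all genes were higher and 742 to 1528 lower. Syvn1 reversed to -0.80 (adjusted p 0.336) on its most abundant transcript. Of 13 transcripts called, 5 to 10 were called with 1 library left out. Of all transcripts 596 were called higher, and 172 to 393 with 1 library left out.

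For Fxr1 against enforced wake the fit on all 9 libraries called 3 higher and 8 lower and library weights 8 and 11. Over all genes these fits called 979 and 2381, and 2496 and 4315. With 1 library left out the counts were 0 to 3 and 0 to 9, against 1 to 828 and 1 to 2488 of all genes. For transcripts they were 0 to 1, where 167 to 787 of all transcripts were called. The median (main -0.09) was -0.032 with protein-coding scaling, -0.033 with library weights, -0.012 with the GC and length trend removed, with or without the replicate block, and -0.15 to -0.061 with 1 library left out.

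For Fxr1 against sleep (12 higher, 0 lower) there were 6 higher in a fit on 6 libraries, 20 with the GC and length trend removed, 21 and 1 lower with library weights, and 6 to 14 with 1 library left out, 6 without sleep 1 and 7 without sleep 2. Over all genes 476 were higher and 677 lower in the main fit. In the other fits, in the same order, 107, 1041 and 1680 were higher and 76, 822 and 3235 lower. With 1 library left out 138 to 599 were higher, 138 without sleep 1 and 177 without sleep 2, and 114 to 844 lower. The median (main 0.22) was 0.28 with median-ratio scaling, 0.27 with protein-coding scaling, 0.29 with library weights, 0.27 with the GC and length trend removed, with or without the replicate block, and 0.20 to 0.24 with 1 library left out. The cause of these changes was not tested.

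With the replicate number as a block 22 members were higher and 2 lower in enforced wake, against 1780 and 1336 of 14673 genes. Between Fxr1 and enforced wake 0 members differed, where 0 of 14563 genes were higher and 1 lower. With Fxr1 9 members were higher than in sleep and 0 lower, against 184 and 188 of 14562 genes. In enforced wake 0 member transcripts were called, where 11 of all 29116 transcripts were. The labels do not say whether same-numbered libraries belong together. With 3 libraries a group, FPKM without counts and 1 library that stands apart, small differences of low genes such as Ern1 may go undetected. Pdia5 and Trib3 were too low to test in the main fits.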

Other observations

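Of the 161 genes of the 7 other ER and chaperone lists tested between Fxr1 and enforced wake, limma called 1. Over all genes 60 of 14563 (0.412%) were called. The 1 gene was the cytosolic heat shock gene Hspa1a, which was lower with Fxr1 (log2 difference -0.78, adjusted p 0.0366). Its level was 1.14 ± 0.224 FPKM in sleep, 3.66 ± 0.0752 in enforced wake and 1.71 ± 0.104 with Fxr1 (SD, n = 3). Hspa1b, of the same list, was not called (-0.58, limma adjusted p 0.0878).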
